A study of Homo sapiens with 6 samples.

Results

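The transcripts of 7 RNA sensor genes of the innate response were compared in COV434 cells with and without BRG1. The genes were DDX58, IFIH1, DHX58, MAVS, TLR3, EIF2AK2 and ADAR, each found by its symbol among the 19899 genes of the count table. All 7 had an adjusted p. Of the 7, 6 were called higher with BRG1 by DESeq2 at an adjusted p under 0.05, beside 11.0% of the 15991 genes tested. They rose by between 1.98-fold for ADAR and 25.5-fold for TLR3, and MAVS did not pass the test.

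COV434 cells are a long-cultured ovarian tumour line, which the study treats as a model of SCCOHT, a hypercalcemic small cell carcinoma of the ovary in which the SWI/SNF ATPase BRG1 (SMARCA4) is lost. Cells were transfected with pCDNA3-neo (Control, n = 3) or with PBJ5-BRG1 (BRG1, n = 3), and every culture also received the puromycin resistance plasmid pBABE-puro. From 24 h after transfection the cells were kept for 3 days on puromycin at 2 to 3 µg/ml, and poly(A) RNA was then sequenced. The series design calls the 3 samples of a group biological replicates. These were mixed transfected cultures and not clones, no value gives the share of cells that carried BRG1, and the plasmid backbone and the BRG1 insert changed together, so their parts cannot be told apart. In such bulk samples, fewer expressing cells and less RNA per cell cannot be told apart either.

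RNA sensors recognise RNA that looks foreign, above all the paired strands that viruses form when they copy their genomes. RIG-I (DDX58) and MDA5 (IFIH1) are cytosolic helicases that bind such RNA and signal through MAVS, an adaptor on mitochondria, towards interferon genes. LGP2 (DHX58) is a related helicase without the signalling domains. TLR3 surveys endosomes, PKR (EIF2AK2) is a kinase that halts translation by phosphorylating eIF2, and ADAR deaminates adenosines in paired RNA, which keeps a cell's own RNA from being sensed. Most of these genes are known to be inducible by interferon themselves, through interferon response elements in their promoters.

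The start regions of 5 of the genes are shown because the data bear on them as genes that moved together and as 1 gene, MAVS, that did not pass the test. ADAR also rose but is not printed, and its windows are described below. Sequences are from RefSeq on GRCh38.p14 and run 5′ to 3′ on the gene's own strand from 250 bases before the annotated start to 10 bases after it. Capitals mark matches to the core of the interferon response element, GAAANNGAAA, or to the same repeat with 1 base between its copies of GAAA, GAAANGAAA, on either strand. On the opposite strand each GAAA reads TTTC. The windows are chr9:32526187-32526446 for DDX58 (minus strand), chr2:162318675-162318934 for IFIH1 (minus), chr4:186068906-186069165 for TLR3 (plus), chr2:37156971-37157230 for EIF2AK2 (minus) and chr20:3846584-3846843 for MAVS (plus).
DDX58: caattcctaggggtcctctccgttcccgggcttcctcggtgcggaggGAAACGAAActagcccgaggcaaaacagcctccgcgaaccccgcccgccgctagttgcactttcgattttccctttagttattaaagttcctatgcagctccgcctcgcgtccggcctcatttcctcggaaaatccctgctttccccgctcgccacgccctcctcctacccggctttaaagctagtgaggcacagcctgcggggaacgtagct
IFIH1: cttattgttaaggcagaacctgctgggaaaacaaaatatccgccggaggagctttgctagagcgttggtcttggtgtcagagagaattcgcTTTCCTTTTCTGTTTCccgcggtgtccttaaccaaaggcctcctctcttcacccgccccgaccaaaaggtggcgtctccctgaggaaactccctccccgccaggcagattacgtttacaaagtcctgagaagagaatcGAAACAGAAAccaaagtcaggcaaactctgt
TLR3: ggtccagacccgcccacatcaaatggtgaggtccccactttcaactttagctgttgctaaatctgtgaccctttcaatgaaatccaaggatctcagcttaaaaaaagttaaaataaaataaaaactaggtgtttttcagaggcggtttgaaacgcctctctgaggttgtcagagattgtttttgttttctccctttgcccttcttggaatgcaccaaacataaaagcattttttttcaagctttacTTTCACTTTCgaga
EIF2AK2: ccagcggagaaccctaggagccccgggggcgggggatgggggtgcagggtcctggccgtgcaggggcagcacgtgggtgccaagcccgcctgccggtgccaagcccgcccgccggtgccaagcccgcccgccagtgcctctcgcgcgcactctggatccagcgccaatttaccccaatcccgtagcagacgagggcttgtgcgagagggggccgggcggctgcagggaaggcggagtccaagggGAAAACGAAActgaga
MAVS: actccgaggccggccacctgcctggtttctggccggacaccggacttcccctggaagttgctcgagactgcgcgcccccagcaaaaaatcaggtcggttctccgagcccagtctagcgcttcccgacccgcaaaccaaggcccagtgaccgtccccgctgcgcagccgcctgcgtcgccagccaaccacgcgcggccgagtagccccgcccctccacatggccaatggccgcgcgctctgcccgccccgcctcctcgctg

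Of the 7 genes, 6 were in the promoter table, and DHX58 was not among them. Windows of 250 bases before to 50 bases after the start were searched on both strands. The core with 2 bases between its copies lay 3 times in the IFIH1 window, at -159 to -150 and at -153 to -144 on the opposite strand, which overlap, and at -21 to -12. It lay once in the TLR3 window, at -4 to 6 on the opposite strand, and once in the EIF2AK2 window, at -6 to 4. In both genes the match spans the annotated start. Of 35116 such windows, 3.574% held this core. The DDX58 window did not hold it, but held the version with 1 base between the copies at -203 to -195, which 3.124% of windows hold. That version was searched after the sequences had been seen. The AP-1 motif TGANTCA, found in 7.709% of windows, lay in 2 of the 3 ADAR windows, at -39 to -33 and at -65 to -59. These windows overlap, and both matches are the same site in the genome. None of the 3 ADAR windows held either form of the interferon response element core, although ADAR was called higher. The MAVS window held none of the 3 motifs. A match is a description of letters and says nothing of what binds there.

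**Figure D1:**
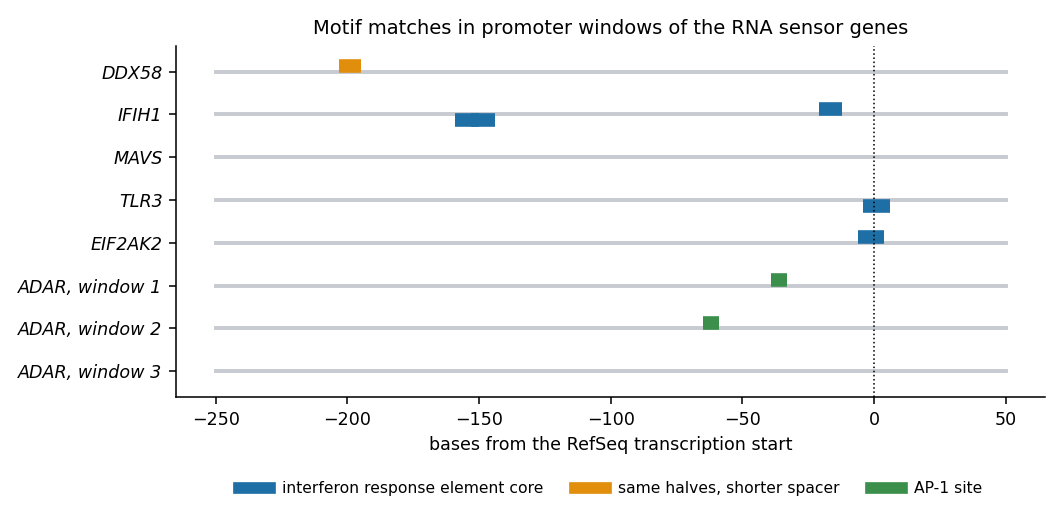
Matches to 3 motifs in the promoter windows of 6 RNA sensor genes, plotted by distance in bases from the RefSeq start, with marks above a line on the gene's strand and below it on the other. The core of the interferon response element lies at the start of TLR3 and EIF2AK2 and 3 times upstream of IFIH1. The ADAR lines hold no match but AP-1, and the MAVS line is empty.

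Libraries held between 29699741 (BRG1 3) and 63613710 (BRG1 1) estimated counts. SMARCA4 was at 1439, 1675 and 1537 normalised counts in Control 1 to 3 and at 108655, 79075 and 78589 in BRG1 1 to 3, plasmid transcripts included (log2 fold change 5.84, standard error [SE] 0.18, DESeq2 adjusted p = 5.4e-216). SMARCA2, the other SWI/SNF ATPase, was at 16.5 ± 11.2 (SD, n = 3) and 24.2 ± 15.7. Among all genes tested the median log2 fold change was -0.01. The 12 immune cell markers summed to between 1871 and 2876 normalised counts in Control and between 2446 and 3945 in BRG1 samples. CD68 made up most of these sums, and CD3E, MS4A1 and FCGR3A were at 3 counts or fewer. Of the 6 with an adjusted p, 1 (16.7%), LYZ, was called higher by DESeq2, beside 11.0% of all genes tested. LYZ was at 3 counts or fewer in each Control sample and at 13.5, 20.8 and 22.7 normalised counts in BRG1 1 to 3. With the replicate block CD68 was called higher too (log2 fold change 0.70, DESeq2 adjusted p = 0.00132), and the sums without CD68 were between 355 and 691 in Control and between 392 and 766 in BRG1 samples. Most of the rest was PTPRC, at 336, 509 and 670 normalised counts in Control and at 360, 477 and 722 in BRG1 samples. PTPRC was not called (log2 fold change 0.04, SE 0.34, DESeq2 adjusted p = 0.977). The 8 granulosa cell markers summed to between 417 and 545 in Control and between 1062 and 2309 in BRG1 samples. Of the 5 with an adjusted p, 3 (60%) were called higher by DESeq2, beside 11.0% of all genes tested. These were CYP19A1, INHBA and INHBB. AMH (log2 fold change 0.46, DESeq2 adjusted p = 0.373) and INHA (-0.14, DESeq2 adjusted p = 0.923) were not called. FOXL2 and AMHR2 were at 3 counts or fewer in every sample and FSHR in all but BRG1 2. The part of these markers in the results on the RNA sensors was not tested.

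The 3 cytosolic receptors rose together, DDX58 most. Normalised counts are estimated counts divided by a size factor for each library. DDX58, on chromosome 9 from 32455302 to 32526208 (minus strand, GRCh38, GENCODE v44, where it is named RIGI), was at 595, 509 and 413 normalised counts in Control 1 to 3 and at 7331, 9441 and 7231 in BRG1 1 to 3. The lowest BRG1 sample was far above the highest Control sample. The log2 fold change was 3.99 (SE 0.20), a 15.8-fold rise with a 95% interval of 12.0 to 20.9 (DESeq2 adjusted p = 3.9e-82, edgeR adjusted p = 4.0e-05). Taken pair by pair, BRG1 over Control was 12.3, 18.6 and 17.5 in replicates 1 to 3. A further gene model of GENCODE v44 shares 43.2% of the exonic bases of DDX58 on the same strand, so the value of DDX58 may hold reads of that model.

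IFIH1, on chromosome 2 from 162267074 to 162318684 (minus strand), encodes the sensor of long paired RNA. It was at 1446, 1629 and 1704 normalised counts in Control and at 5646, 8555 and 8103 in BRG1 samples. The groups did not overlap, and BRG1 1 was the lowest of its group. The log2 fold change of 2.22 (SE 0.20) was a rise of 4.67-fold with an interval of 3.54 to 6.15 (DESeq2 adjusted p = 5.5e-26, edgeR adjusted p = 2.5e-04). The interval lay below that of DDX58.

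DHX58, on chromosome 17 from 42101404 to 42112714 (minus strand), encodes the related helicase without signalling domains. It was at 128, 116 and 141 normalised counts in Control and at 955, 1000 and 1013 in BRG1 samples. The coefficient of variation of the BRG1 samples was 3.07%, the smallest among the 7 genes. DHX58 rose 7.67-fold, with an interval of 6.09 to 9.67 and a log2 fold change of 2.94 (SE 0.17; DESeq2 adjusted p = 2.6e-64, edgeR adjusted p = 8.6e-05).

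MAVS, the adaptor through which RIG-I and MDA5 signal, was the gene that did not pass the test. It lies on chromosome 20 from 3846799 to 3876123 (plus strand). MAVS was at 4183, 3303 and 4348 normalised counts in Control and at 4800, 3747 and 4502 in BRG1 samples, and the groups overlapped. The log2 fold change was 0.14 (SE 0.18), and the 95% interval of the fold ran from 0.862 to 1.41 (DESeq2 adjusted p = 0.785, edgeR adjusted p = 0.703). A replicate block in DESeq2 gave an adjusted p of 0.370. Control 2 and BRG1 2 were the lowest samples of their groups, and the replicate pairs gave folds of 1.15, 1.13 and 1.04. A MAVS change of the size seen for ADAR, the least changed of the other genes, lay outside the MAVS interval.

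**Figure D2:**
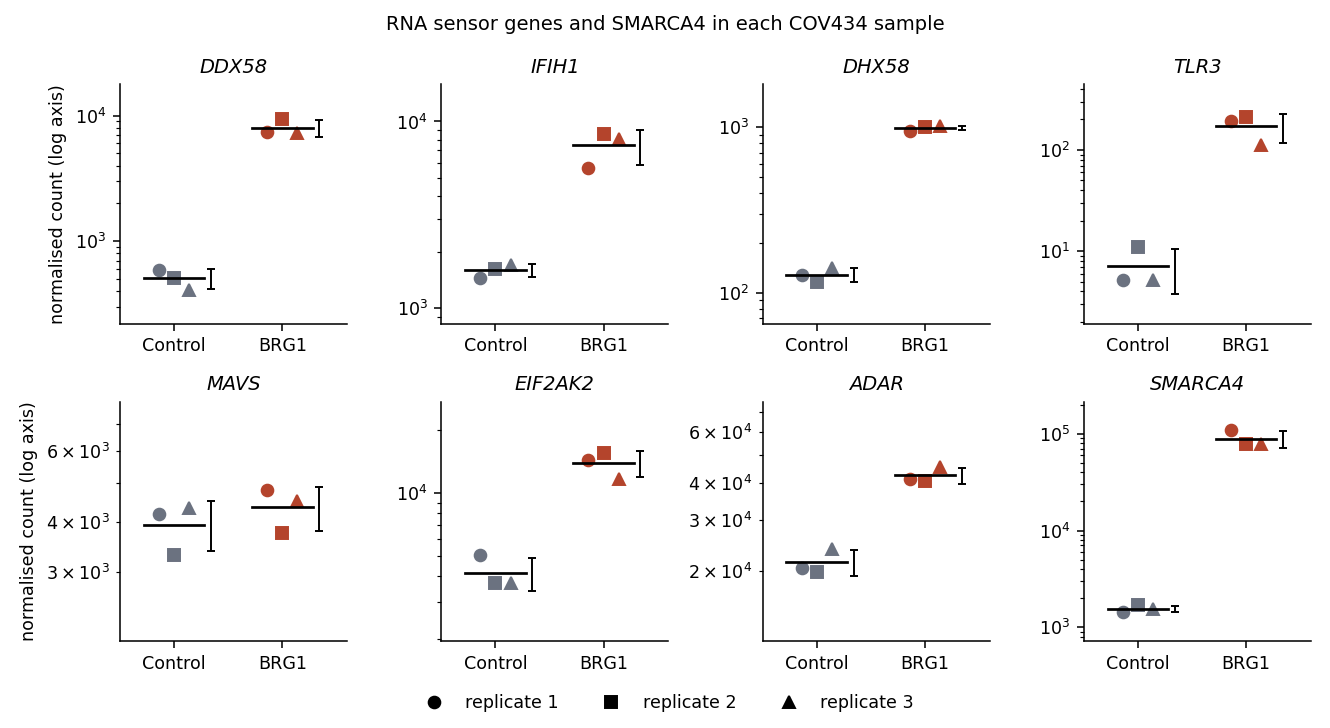
Normalised counts (log axes, each panel with its own range) of the 7 RNA sensor genes and SMARCA4 in 3 Control and 3 BRG1 samples, with points shaped by replicate number, lines at the group means and bars of 1 SD. The groups stand apart in every panel but that of MAVS, where Control lies between 3303 and 4348 and BRG1 between 3747 and 4800.

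TLR3, the endosomal receptor, went from near the limit of counting to a clear level and had the largest fold change of the 7 genes. It lies on chromosome 4 from 186068911 to 186088073 (plus strand). Control samples held 4.29, 9.42 and 6.79 estimated counts, or 5.23, 11.0 and 5.14 normalised counts. BRG1 samples were at 194, 211 and 111 normalised counts. All 3 lay at least an order of magnitude above the highest Control sample. The log2 fold change was 4.67 (SE 0.51), and the rise of 25.5-fold had the widest interval of the 7, 12.8 to 50.6 (DESeq2 adjusted p = 1.4e-18, edgeR adjusted p = 5.7e-04). The pairs of replicates 1 to 3 gave folds of 37.1, 19.1 and 21.5.

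EIF2AK2 encodes PKR and lies on chromosome 2 from 37099210 to 37157522 (minus strand). It was at 5019, 3693 and 3696 normalised counts in Control and at 14435, 15572 and 11712 in BRG1 samples, with no overlap. Control 1 was the highest of its group. EIF2AK2 rose 3.36-fold, with an interval of 2.57 to 4.40 and a log2 fold change of 1.75 (SE 0.20; DESeq2 adjusted p = 5.2e-17, edgeR adjusted p = 5.5e-04). Other genes share 3.95% of its exonic bases, most of them in a processed pseudogene.

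ADAR, the RNA-editing enzyme, lies on chromosome 1 from 154581695 to 154628013 (minus strand). It was at 20528, 19977 and 23931 normalised counts in Control and at 41242, 40813 and 45563 in BRG1 samples. All BRG1 samples were above all Control samples. The log2 fold change was 0.99 (SE 0.14), a rise of 1.98-fold with an interval of 1.64 to 2.39 (DESeq2 adjusted p = 3.1e-11, edgeR adjusted p = 0.00113). The 3 replicate pairs gave nearly the same fold, at 2.01, 2.04 and 1.90. The table gives 1 value for all ADAR transcripts, so its longer, interferon-inducible form was not separated from the shorter one.

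Of the 7 genes, 6 were called higher by DESeq2 at an adjusted p under 0.05, beside 11.0% of the 15991 genes tested, and none was called lower, beside 1.84%. None of the 7 had a lower value at an unadjusted p under 0.05. By edgeR the same 6 were called higher, beside 9.57% of 14246 genes. With the replicate block in DESeq2 the count was also 6, beside 13.4% called higher and 6.62% called lower among all genes. In 6 of the 7 every BRG1 sample was above every Control sample, which held for 16.8% of all genes tested. The median log2 fold change of the 7 was 2.22. The members had been listed with earlier results of these data known.

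**Figure D3:**
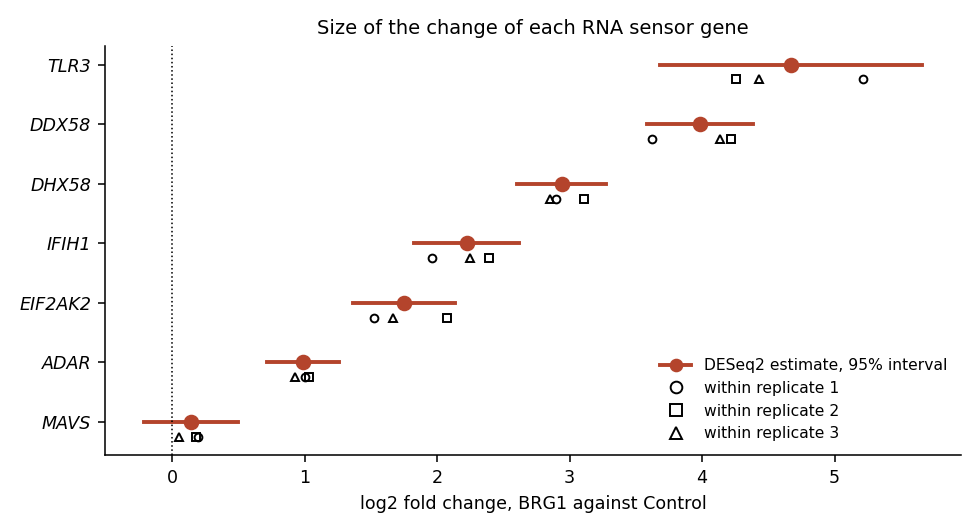
Log2 fold change of each RNA sensor gene, BRG1 against Control, as the DESeq2 estimate with its 95% interval (red) and within each replicate number (open symbols). MAVS, at 0.14, has an interval that crosses 0, and the other 6 lie between 0.99 and 4.67.

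Levels between genes were compared per kilobase of the canonical transcript. In Control cells ADAR was by far the most abundant, at 3249 ± 324 normalised counts per kilobase (SD, n = 3). IFIH1 (445 ± 37.0), EIF2AK2 (415 ± 76.7) and MAVS (336 ± 47.9) followed, and each of these had sample ranges that overlapped with its neighbour's. DDX58 (109 ± 19.8), DHX58 (49.5 ± 4.77) and TLR3 (1.19 ± 0.563) stood apart from one another. The order was different in BRG1 cells. ADAR was still first at 6436 ± 398 per kilobase, but DDX58, at 1729 ± 270, now overlapped with IFIH1 at 2076 ± 437 and was above EIF2AK2 at 1394 ± 199. DHX58, at 382 ± 11.7 per kilobase, overlapped with MAVS at 371 ± 46.3, and TLR3 remained last at 28.6 ± 8.94. With the length of all merged exons in place of the canonical transcript, MAVS and EIF2AK2 came before IFIH1 in Control cells and EIF2AK2 came before DDX58 in BRG1 cells, so the order of these neighbours depends on the length used. Neither overlap named for BRG1 cells held with that length, since IFIH1 (1423 ± 300 per kilobase) then stood apart above DDX58 (773 ± 121) and MAVS (370 ± 46.1) above DHX58 (259 ± 7.93).

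**Figure D4:**
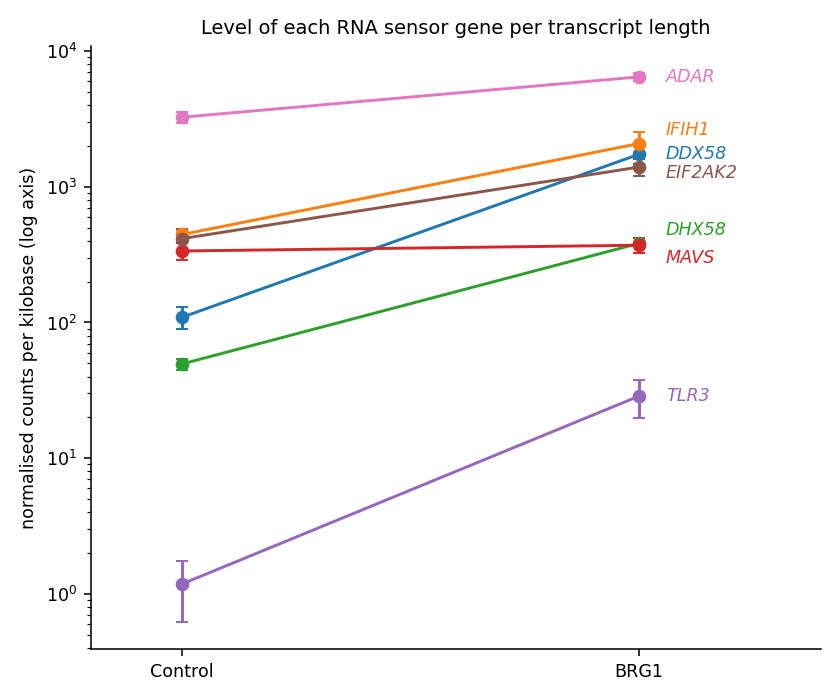
Mean level of the 7 RNA sensor genes in normalised counts per kilobase of the canonical transcript (log axis) in Control and BRG1 cells, with bars of 1 SD over 3 samples. The DDX58 line climbs from 109 to 1729 past MAVS and EIF2AK2, and the MAVS line stays between 336 and 371.

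Most measures of the balance among the receptors stood apart between the groups, but none had an adjusted p under 0.05. DDX58 made up 22.1%, 18.0% and 14.4% of the receptor transcripts per kilobase in Control 1 to 3 and 44.9%, 42.4% and 37.1% in BRG1 1 to 3. IFIH1 made up 73.6% ± 3.83 (SD, n = 3) in Control and 49.3% ± 4.51 in BRG1 samples. DHX58 held 8.20% ± 0.760 and 9.25% ± 1.22. There were 4.20 IFIH1 transcripts per DDX58 transcript in Control and 1.20 in BRG1 samples. Summed receptor transcripts per MAVS transcript went from 1.82 ± 0.297 to 11.6 ± 3.26, and ADAR transcripts per EIF2AK2 transcript from 8.03 ± 1.80 to 4.71 ± 1.02. For all of these but the DHX58 share, the groups did not overlap, and the two-sided exact permutation p was 0.1, the smallest that 3 samples against 3 can give (0.12 after Benjamini-Hochberg adjustment over 6 quantities). The p for the DHX58 share was 0.3. The DDX58 share, the IFIH1 share and the ratio of IFIH1 to DDX58 rest on the same values and are not separate results. Per kilobase of merged exons the DDX58 share was 12.7% in Control and 31.7% in BRG1 samples, IFIH1 per DDX58 was 6.44 and 1.85, receptors per MAVS were 1.17 and 6.80, and ADAR per EIF2AK2 was 4.80 and 2.82. These ratios thus depend on the length used, while each kept its direction without overlap between the groups.

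Most genes that work around the receptors did not pass the test. Among 10 cofactors of the RIG-I-like receptors, 3 (30%) were called higher and none lower by DESeq2, and edgeR called 3 too. Of all genes tested, DESeq2 called 11.0% higher and 1.84% lower, and edgeR called 9.57% higher. DDX60, a helicase reported to aid RIG-I, was at 89.5, 72.6 and 180 normalised counts in Control and at 5178, 5171 and 4412 in BRG1 samples (log2 fold change 5.42, DESeq2 adjusted p = 3.3e-62). TRIM25, a ubiquitin ligase of RIG-I, rose by 1.44 on the log2 scale, from 6213 ± 333 to 16915 ± 1242. ZC3HAV1, the zinc finger antiviral protein, rose by 0.99. The other 7, among them the ligases RNF135 (log2 fold change -0.09) and MEX3C (0.17), did not pass the test, and the median of the list was -0.10. With the replicate block the phosphatase subunit PPP1CA was called lower (log2 fold change -0.26, DESeq2 adjusted p = 0.0355).

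Downstream of MAVS, 1 of 21 signalling partners was called higher, a share of 4.76% beside 11.0% of all genes tested, and none lower. That gene, the kinase IKBKE, was at 3 counts or fewer in each Control sample and at 19.1, 7.78 and 22.5 normalised counts in BRG1 samples (DESeq2 adjusted p = 0.0108). The mean of its BRG1 samples was 5.22-fold above a floor of 3 counts in each Control library. This is a lower bound for the group means and not for each sample. IKBKE was too low for edgeR, which called none of the 19 partners it tested. TBK1, the kinase that phosphorylates IRF3, had a log2 fold change of 0.06 (SE 0.18), and IRF3 itself, the factor that carries the signal to interferon genes, had one of -0.06 (SE 0.18). Like MAVS, both had overlapping groups. With the replicate block the count was 6, IKBKE with CYLD, TANK, TNFAIP3, TRADD and TRAF6, and edgeR with the block called 4. Over all genes DESeq2 with the block called 13.4% higher. The count was 0 without BRG1 1, 2 without Control 1 and 3 without BRG1 3.

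Beside TLR3, 4 of 13 other Toll-like receptors and their adaptors (30.8%) were called higher, against 11.0% of all genes tested. TLR4, the receptor of bacterial lipopolysaccharide, was at 11.6, 20.7 and 6.91 normalised counts in Control and at 460, 358 and 94.2 in BRG1 samples (log2 fold change 4.58, DESeq2 adjusted p = 4.8e-12). TLR6, a partner of TLR2, was low in Control and at 50.4, 17.8 and 33.6 in BRG1 samples, at least 10.8-fold higher than the floor (adjusted p = 1.1e-04). TLR1 was at least 3.46-fold higher (adjusted p = 0.0401, but 0.0892 with the replicate block in DESeq2). UNC93B1, which brings TLR3 and its relatives to endosomes, went from 905 ± 86.3 to 1216 ± 42.9 (log2 fold change 0.43, adjusted p = 0.0276). The count was 2 without Control 2, without Control 3, without BRG1 1 or without BRG1 2. Of the 4, edgeR called TLR4 and TLR6, and it gave UNC93B1 an adjusted p of 0.121. It did not test TLR1. Of this list edgeR tested 7 genes and called 2 higher, beside 9.57% of all genes it tested. For TICAM1, the adaptor of TLR3, the log2 fold change was 0.46, with a DESeq2 adjusted p of 0.230, or 0.0111 with the block. The receptors of single-stranded RNA, TLR7 and TLR8, were at most at 7.14 normalised counts in any sample and did not pass the test.

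None of the 18 genes of the eIF2 kinase axis around PKR was called by DESeq2, edgeR or limma-voom, and 1, EIF2B2, was lower at an unadjusted p under 0.05. The list holds the other eIF2 kinases, the PKR regulators PRKRA, TARBP2 and DNAJC3, the subunits of eIF2 and its exchange factor, and ATF4 and DDIT3 downstream. EIF2S1, the substrate of PKR, had a log2 fold change of -0.07 (SE 0.11). EIF2AK3, the kinase of endoplasmic reticulum stress, had one of 0.46 (SE 0.24), and the median of the list was -0.06. With the replicate block DESeq2 called 2 of the 18 higher (EIF2AK3 and PPP1R15B) and 3 lower (EIF2AK4, EIF2B2 and EIF2S3), each with a log2 fold change between -0.29 and 0.44. Over all genes that fit called 13.4% higher and 6.62% lower. Without BRG1 3, DESeq2 called 1 of the 18 higher.

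Among other members of the ADAR family and binders of paired RNA, 1 of 7 (14.3%) was called higher by DESeq2, beside 11.0% of all genes tested, and by edgeR as well. This was ZBP1, a sensor of left-handed nucleic acid, which had no counts in Control and 19.6, 25.8 and 16.2 normalised counts in BRG1 samples, at least 6.53-fold above the floor (DESeq2 adjusted p = 3.9e-05). ADARB1, the second catalytically active ADAR enzyme, had a log2 fold change of -0.18 (SE 0.18), and DHX9 had one of -0.15. The other family members, ADARB2, ADAD1 and ADAD2, had 3 counts or fewer in every sample and no adjusted p.

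DDX58 and DHX58 were also set beside the other genes with a DDX or DHX symbol. These other helicases were listed by symbol alone. Of 50 other DDX and DHX helicases with an adjusted p, 2 (4%) were called higher and none lower by DESeq2, beside 11.0% and 1.84% of all genes tested. By edgeR the same 2 were called higher and none lower, and the median log2 fold change was -0.01, as over all genes. The 2 were DDX60, which is also among the cofactors, and its paralog DDX60L, at 0, 9.60 and 1.24 normalised counts in Control and 159, 233 and 126 in BRG1 samples (log2 fold change 5.65, DESeq2 adjusted p = 5.7e-15). Reads of these near copies may have been shared out between them. With the block DDX20 and DDX47 were also called higher and DHX34 lower. Without BRG1 3 the number called higher was 4.

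**Figure D5:**
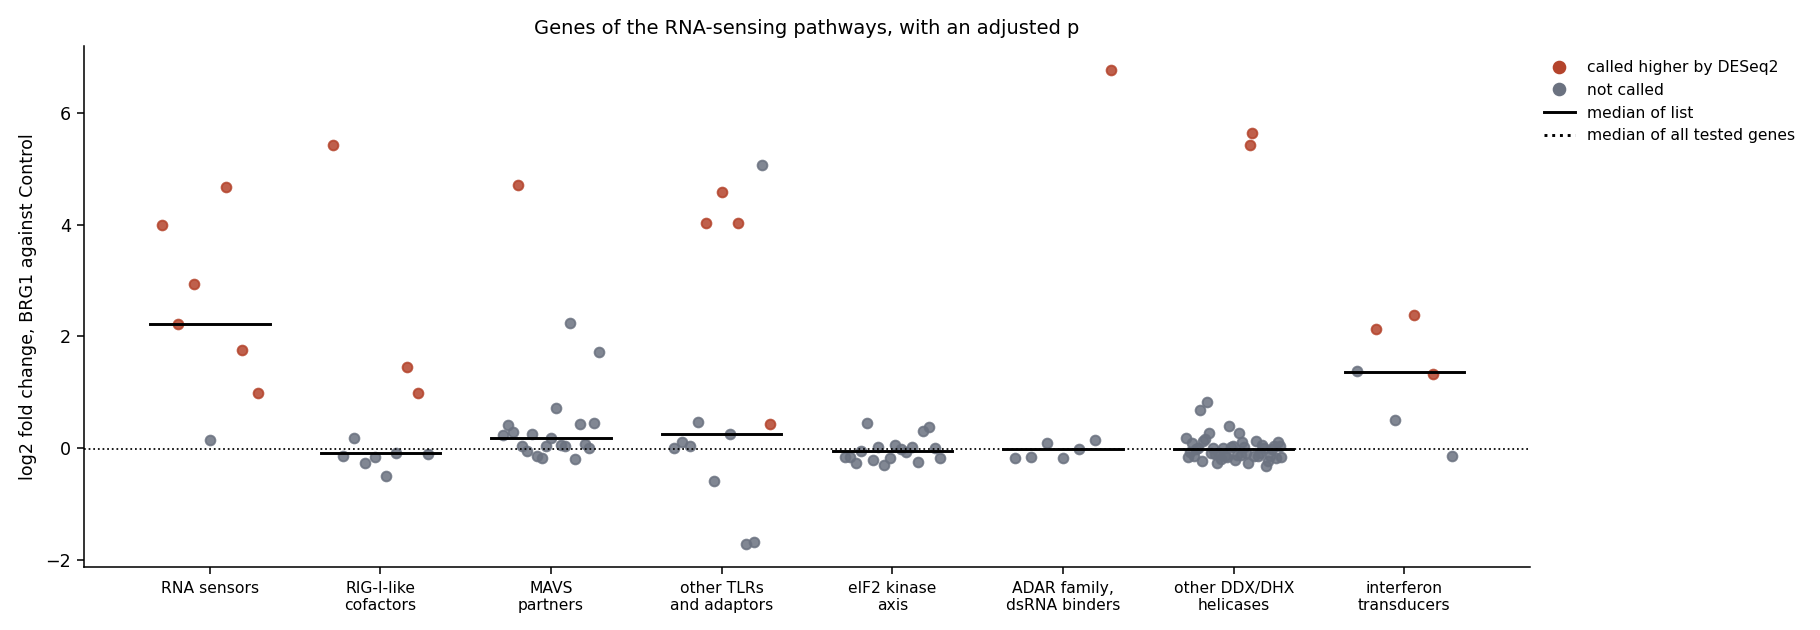
Log2 fold change, BRG1 against Control, of every gene with an adjusted p in the RNA sensor list and in 7 lists of related genes, red where DESeq2 called the gene higher, with a bar at each list's median and a dotted line at the median of all genes (-0.01). Most MAVS partners, eIF2 axis genes and other helicases lie near 0, while the RNA sensors have a median of 2.22.

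Of the interferon genes at the end of the sensing pathway, IFNB1 rose and the other 5 on the list held at most 8.50 normalised counts in any sample. IFNB1, the type I interferon that MAVS and TLR3 signalling induces, was at 0, 1.17 and 0 normalised counts in Control and at 79.0, 61.4 and 31.3 in BRG1 samples, at least 18.2-fold above the floor (DESeq2 adjusted p = 6.8e-07, edgeR adjusted p = 0.00139). It was the 1 gene called among 7 interferon ligands and receptors with an adjusted p, or 14.3%, beside 11.0% of all genes tested. The lambda interferons IFNL1 and IFNL3 were at most at 7.25 and 5.59 normalised counts in BRG1 samples, with adjusted p-values of 0.102 and 0.335 by DESeq2, and the receptor IFNAR1 had a log2 fold change of -0.07 (SE 0.22). Of 6 transducers of the interferon signal, 3 (50%) were called higher by DESeq2 and edgeR, beside 11.0% and 9.57% of all genes. Among them, IRF9 was at 1513, 1576 and 1560 normalised counts in Control and at 6484, 7583 and 6321 in BRG1 samples (log2 fold change 2.13, DESeq2 adjusted p = 1.1e-52), and STAT2 rose by 1.33 on the log2 scale. With the replicate block JAK1 and IRF1 were added, which made 5 of 6, beside 13.4% of all genes called higher by DESeq2 with the block.

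The profile of the 3 cytosolic receptors over the 6 samples was compared with those of 11682 genes with a mean of at least 100 normalised counts. Likeness was the root mean square distance of log2 values, each centred on the gene's own mean, from the receptors' mean profile, whose range between the group means was 3.04. ISG15, a ubiquitin-like modifier, was closest at 0.0951 on the log2 scale. Control cells held 10652 ± 579 normalised counts of ISG15 (SD, n = 3) and cells with BRG1 79631 ± 6279. HELZ2 (0.220), SRPX (0.234), HLA-F (0.249) and USP18 (0.253) followed. EIF2AK2 was at rank 179, ADAR at rank 519 and MAVS at rank 2673. All these profiles share the same 6 libraries in 2 groups, so the likeness is a description.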

How the data were processed

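RNA from COV434 cells (3 Control, 3 BRG1 samples) was sequenced by the authors as unstranded poly(A) libraries. The authors aligned reads with STAR 2.5.3a, quantified GENCODE v24 transcripts with Salmon 0.8.2 and deposited estimated counts per gene (tximport, TPM scaled by transcript length and library size, hg38 per the labels). Reads of near-identical or overlapping genes are shared out by a model, and antisense reads cannot be told apart. The table held 19899 genes, 18096 with a count.

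Estimated counts were rounded and tested with DESeq2 1.42.0 (Wald test, no covariate, median-ratio size factors, as the study used DESeq2) in R 4.3.3, with Benjamini-Hochberg adjustment over all genes and calls at an adjusted p under 0.05. Alternatives were edgeR 4.0.16, limma-voom (limma 3.58.1), other size factors and filters, each sample left out, and the replicate number as a block. DESeq2 and edgeR, each with and without the block, and limma-voom were tested on simulated data, where DESeq2 made more false calls than edgeR, so edgeR calls are given beside those of DESeq2, and calls by DESeq2 alone are less certain. Same-numbered samples deviated together (r = 0.343, 0.299 and 0.460 over 14218 genes), so the numbers were taken to pair the samples in the block fits and the folds by replicate. The main DESeq2 test, its intervals and the permutation tests did not use this pairing.

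Totals of 29699741 to 63613710 estimated counts set the counting error. Folds against Control groups at or under 3 counts per sample are lower bounds for the ratio of the group means, with a floor of 3 counts in each Control library. The members, lists and marker genes were chosen with earlier results of these data known. Named were all members, the list genes called (at most the 4 largest), others a result turns on and the 5 genes most like the receptors. Gene positions are from GENCODE v44, promoters from RefSeq.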

Additional observations from a re-analysis of the deposited data

How the results depend on the processing

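The 6 members called higher and SMARCA4 were called in the same direction in all 13 alternative fits, and MAVS was called in none (log2 fold change 0.03 to 0.24, adjusted p 0.287 to 0.983). The largest adjusted p of a called member was 0.00147, for ADAR with limma-voom. With a required log2 fold change of at least 1 in size, 5 members were left, without ADAR, and 1488 of the 15991 genes tested were called higher. The replicate block left the member count at 6 and changed no other call on a member. The number of genes called lower, 294, moved most. It was 130 at an adjusted p under 0.01, 146 by edgeR, 169 by limma-voom, 11 with a log2 fold change of at least 1 in size, and 1035 and 809 with the replicate block in DESeq2 and edgeR. It ranged from 117 without BRG1 2 to 596 without BRG1 3, and was 133, 166 and 161 without Control 1, 2 and 3 and 172 without BRG1 1. The cause was not tested. Depth limits TLR3, IKBKE, TLR1, TLR6, ZBP1 and IFNB1, whose Control values rest on a few counts or none.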

Other observations

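Several signalling genes around the sensors were low in sample 3 of both groups, a pattern noticed after their values were seen. IRF1, a transcription factor of the interferon response, was at 6400, 5760 and 570 normalised counts in Control 1 to 3 and at 14244, 16698 and 2233 in BRG1 1 to 3. Its log2 fold change was 1.38 (SE 1.13, DESeq2 adjusted p = 0.586), and with the replicate block 1.55 (adjusted p = 1.1e-21). TRAF6, a ubiquitin ligase downstream of MAVS and Toll-like receptors, was at 684, 532 and 291 in Control and at 2884, 1601 and 473 in BRG1 samples. DDIT3, a stress factor downstream of the eIF2 kinases, was at 8773, 10288 and 1406 in Control and at 7291, 8902 and 2116 in BRG1 samples. The groups of DDIT3 overlapped, and its log2 fold change was -0.16 (SE 0.93). Among the members, DDX58 and TLR3 were lowest in sample 3 of both groups, but some of these gaps were very narrow. DDX58 was at 7231 in BRG1 3 and 7331 in BRG1 1, and TLR3 at 5.14 in Control 3 and 5.23 in Control 1. Control 3 and BRG1 3 were the highest samples of their groups for DHX58 and ADAR.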
